A study of Homo sapiens with 6 samples.

Results

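The genes described here are 10 genes of the Notch pathway, namely the receptors NOTCH1, NOTCH2 and NOTCH3, the ligands JAG1, JAG2 and DLL1, and the transcriptional repressors HES1, HES4, HES6 and HEY1. They were taken by symbol from the 28563 genes of an RNA-seq table of HepG2 cells, and all 10 were found. The set was picked because HES6 had one of the largest rises of all genes after treatment, so its values are a description and carry no test. The other 9 genes were measured in the same contrast and were not the reason for the choice. All 10 were chosen, however, with earlier results of these data known, so tests of the others are not wholly separate from that knowledge. HepG2 is an established human cell line grown from a liver tumour. Polydatin (PD) is a glucoside of resveratrol, a plant polyphenol. Plates of the same HepG2 stock received either 336 µM PD, the dose in the sample labels, or its solvent DMSO as control, and RNA was taken 24 h later. The methods of the paper give a somewhat lower dose for these cells, and which of them was used cannot be told from the table. There were 3 PD libraries and 3 DMSO libraries, with no other treatment and no genetic change to any group. As all cells came from a single line and a single dose, the spread between libraries is the spread between plates of that line.

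Notch receptors are cut when a ligand of the Jagged or Delta-like family on a neighbouring cell pulls on them, and the freed intracellular domain joins the DNA-binding protein RBPJ and its coactivators in the nucleus. Several genes of the HES and HEY families, HES1 and HEY1 among them, are the usual targets. They encode basic helix-loop-helix repressors that recruit corepressors of the TLE family, and in the liver the pathway is best known for the choice of bile duct fate, with JAG1 and NOTCH2 as its leading pair.

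The values are FPKM, the fragments counted on a gene scaled by its length and by the library total, so levels of different genes can be compared per length. Library totals, worked back from the steps in the FPKM, ranged from 16763318 to 17274927 fragments for the DMSO libraries and from 16308476 to 18071632 for those of PD. For 14400 genes, those averaging 0.5 FPKM or more over the 6 libraries, PD was compared with DMSO by limma on log2(FPKM + 1), and p-values were adjusted over all of these genes by the Benjamini-Hochberg method. A gene was called when its adjusted p did not exceed 0.05, and was a differentially expressed gene (DEG) if it also changed at least 2-fold. Of all tested genes 58.1% were called and 3.61% were DEGs. Hepatocyte markers did not fully match the label of the line. Of 18 markers listed, 10 were analysed, and APOA1, SERPINA1, TF, FGA, FGG, HNF4A and CYP3A4 reached at most 0.172 FPKM each in any library. Only CPS1 and RBP4 reached 1 FPKM, and the summed level of all 10, nearly all of it CPS1, was 222 to 229 FPKM in DMSO and 107 to 113 in PD. The summed level of 4 fibroblast markers was 4.40 to 5.29 FPKM in DMSO and 4.75 to 5.05 in PD, where COL1A1 and PDGFRB reached 1 FPKM. The 5 endothelial markers analysed stayed at or below 0.113 FPKM each, and the 2 immune cell markers summed to 0.374 to 0.518 FPKM in DMSO and 0.498 to 0.633 in PD. Whether these levels have a part in the Notch values was not tested, and in whole-plate RNA fewer cells of a type and less RNA per cell cannot be told apart.

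Among the members other than HES6, NOTCH1, NOTCH3, JAG1 and HEY1 rose under PD, JAG2 fell, and NOTCH2, HES1 and HES4 did not pass the threshold. DLL1 was too low to be tested. Thus 5 of the 8 tested members were called, against 58.1% of all tested genes, and this share is near the background. None of the 8 was a DEG by limma or by limma voom on fragments. Voom called 5 of the 8 at the adjusted p, against 62% of all genes it tested. The groups did not overlap in 5 of the 8, against 65.4% of all tested genes. Over these 8 the median change was 0.19 on the log2 scale, and over all tested genes it was 0.01.

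**Figure D1:**
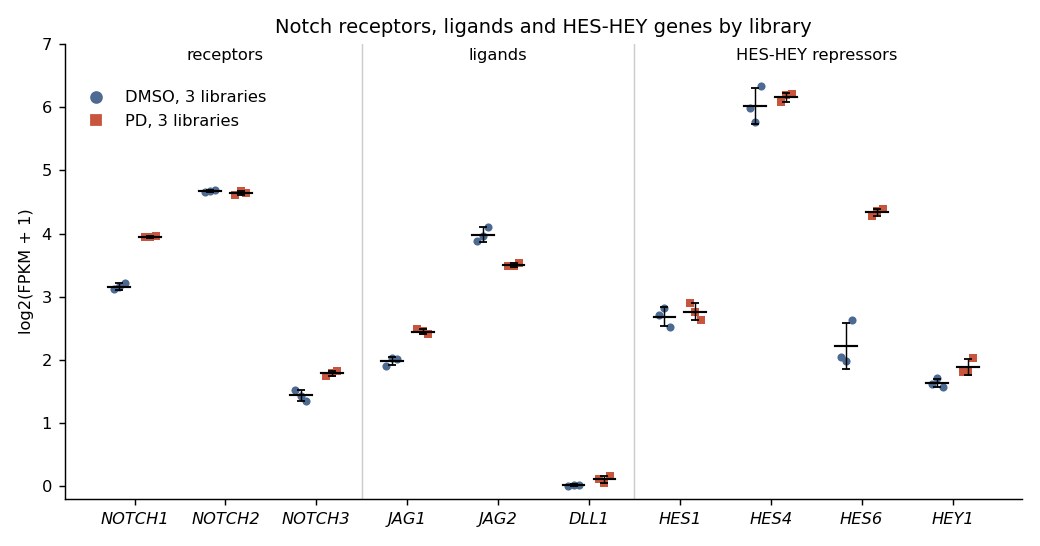
Levels of the 10 Notch genes in the 3 DMSO and the 3 PD libraries, with the group means. HES6 stands at 2.96 to 5.22 FPKM in DMSO and at 18.4 to 19.9 in PD, whereas NOTCH2, HES1 and HES4 overlap between the groups.

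HES6 encodes an atypical family member that can counteract HES1 and is known for promoting neuronal differentiation. The gene (ENSG00000144485) lies on the minus strand of chromosome 2 at 238238267 to 238240662 (hg38, GENCODE release 44). It stood at 3.13, 2.96 and 5.22 FPKM in DMSO and at 18.4, 19.4 and 19.9 FPKM in PD. Every PD library lay above every DMSO library, and DMSO 3 lay above the other DMSO libraries. The mean went from 3.77 ± 1.26 to 19.2 ± 0.744 FPKM (SD, n = 3 each), a ratio of 5.11, and the log2 fold change on the log2(FPKM + 1) scale was 2.12 (standard error 0.16), which placed it at rank 2 from the top among 14400 genes. The raw depth behind these levels was 110, 101 and 182 fragments in DMSO and 678, 694 and 660 in PD. The exact Poisson interval at 95% for the fragments of DMSO 3 ran from 157 to 210, above the intervals of DMSO 1 (90.4 to 133) and DMSO 2 (82.3 to 123). Such intervals cover counting error only. Without DMSO 3 the log2 fold change was 2.32.

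The 250 bases before the RefSeq start are shown for HES1, HES4 and HES6, as a description of the short motifs in them. Of these 3 repressors HES6 rose, whereas HES1 and HES4 did not pass the threshold. Whether the motifs have a part in the levels was not tested. The sequences are from the RefSeq promoter table (GRCh38.p14), each read 5′ to 3′ on the strand of its gene, and 8 of the 10 members had an entry. Capitals mark 3 motifs searched on both strands, which are TGGGAA, the core bound by RBPJ, CACNAG, the N-box bound by HES proteins, and CANNTG, the E-box of basic helix-loop-helix proteins. HES1 is shown from chr3:194135898-194136147 on the plus strand, HES4 from chr1:1000098-1000347 on the minus strand, and HES6 from chr2:238240039-238240288 on the minus strand. The RefSeq start equals the GENCODE gene start for HES1 but lies 75 bases inside the GENCODE gene for HES4 and 624 bases inside it for HES6, so these windows lie partly or wholly within the gene spans given for them. The starts also lie 48 bases apart for JAG2 and 31117 for NOTCH2, and are the same for NOTCH1, NOTCH3 and JAG1.
HES1: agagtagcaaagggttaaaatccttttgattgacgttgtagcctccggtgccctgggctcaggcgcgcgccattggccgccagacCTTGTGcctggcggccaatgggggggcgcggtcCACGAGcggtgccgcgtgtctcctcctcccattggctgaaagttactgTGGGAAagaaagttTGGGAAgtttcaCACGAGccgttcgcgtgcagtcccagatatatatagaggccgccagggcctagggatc
HES4: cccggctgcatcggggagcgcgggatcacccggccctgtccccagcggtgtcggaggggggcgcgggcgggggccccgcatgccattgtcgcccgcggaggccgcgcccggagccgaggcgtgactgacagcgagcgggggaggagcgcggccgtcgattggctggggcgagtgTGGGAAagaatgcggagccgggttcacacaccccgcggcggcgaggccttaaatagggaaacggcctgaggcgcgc
HES6: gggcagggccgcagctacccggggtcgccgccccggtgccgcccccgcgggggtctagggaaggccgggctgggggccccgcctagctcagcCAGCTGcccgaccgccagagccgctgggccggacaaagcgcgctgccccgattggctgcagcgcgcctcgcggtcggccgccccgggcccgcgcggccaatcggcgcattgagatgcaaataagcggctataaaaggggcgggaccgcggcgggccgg
With positions counted back from the base before the start, HES1 held TGGGAA at -84 and -70 and 3 matches to CACNAG, HES4 held 1 TGGGAA at -76, and HES6 held neither of these but a single CANNTG, read CAGCTG, at -158. Of 35116 promoter windows of this length, 20.8% held TGGGAA, 32% CACNAG and 61.8% CANNTG. The first TGGGAA of HES1 and that of HES4 lie within the same stretch TGTGGGAAAGAA, which 6 of the windows held (0.0171%), both genes included. This stretch was picked from these sequences after they were read. Among the other members with an entry, NOTCH3 held 1 CACNAG, JAG2 held 2 CANNTG, and the windows of NOTCH1, NOTCH2 and JAG1 held none of the 3 motifs. A match is a description of letters and not a binding site, and a window without one says only that these letters are not in it.

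HES1 and HES4 differed between the groups by less than the spread between libraries. HES1 (ENSG00000114315, chromosome 3, 194136148 to 194138732, plus strand), the best known repressor downstream of Notch, stood at 5.53, 6.05 and 4.76 FPKM in DMSO and at 6.47, 5.78 and 5.20 in PD. The libraries of the groups were interleaved, with a log2 fold change of 0.08 (95% interval -0.14 to 0.31, limma adjusted p = 0.491). HES4 (ENSG00000188290, chromosome 1, 998962 to 1000172, minus strand), a close relative of HES1, had the highest level of the 10 genes. It stood at 62.2, 53.3 and 79.3 FPKM in DMSO and at 66.6, 72.0 and 72.6 in PD. DMSO 3 was the highest library of all and the other DMSO libraries the lowest, so the groups overlapped, and the log2 fold change was 0.13 (95% interval -0.17 to 0.43, limma adjusted p = 0.409). This outcome turned on DMSO 3, as without it HES4 was higher in PD by 0.28 on the log2 scale (limma adjusted p = 0.0167, in a range of 0.0167 to 0.993 over 12 alternatives).

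HEY1, a related repressor and Notch target, rose by a small amount. The gene (ENSG00000164683, chromosome 8, 79762371 to 79767857, minus strand) stood at 2.08, 2.27 and 1.97 FPKM in DMSO and at 2.52, 2.51 and 3.09 in PD. All PD libraries lay above the DMSO libraries, with PD 3 apart from the other PD libraries. The log2 fold change was 0.25 (standard error 0.08, limma adjusted p = 0.0352). The call was lost in 6 of 12 alternatives, including those without DMSO 1, without DMSO 3 and without PD 3, and the adjusted p ranged from 0.0304 to 0.106 over all 12.

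NOTCH1 had the largest rise of the tested members other than HES6. This receptor (ENSG00000148400, chromosome 9, 136494433 to 136546048, minus strand) is the family member most often mutated in T cell leukaemia. It stood at 7.68, 7.86 and 8.31 FPKM in DMSO and at 14.3, 14.4 and 14.6 in PD. The gap between the groups was many times the spread within them, and the mean went from 7.95 ± 0.325 to 14.4 ± 0.131 FPKM (SD, n = 3 each), 1.81-fold higher in PD. The log2 fold change was 0.78 (standard error 0.04, limma adjusted p = 9.41e-06).

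NOTCH3, a receptor known from vascular smooth muscle, rose from a lower level. The gene (ENSG00000074181, chromosome 19, 15159038 to 15200995, minus strand) stood at 1.89, 1.69 and 1.56 FPKM in DMSO and at 2.36, 2.45 and 2.53 in PD. The groups did not overlap, and the log2 fold change was 0.35 (standard error 0.07, limma adjusted p = 0.00444). It was 0.52 by voom, which adds no constant of 1 FPKM to a gene of this level.

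NOTCH2, the receptor of bile duct development, was the most abundant receptor in every library. The gene (ENSG00000134250, chromosome 1, 119911553 to 120100779, minus strand) stood at 24.1, 24.6 and 24.7 FPKM in DMSO and at 23.5, 24.5 and 24.0 in PD. The groups overlapped, and the log2 fold change was -0.03 with a 95% interval of -0.10 to 0.05 (limma adjusted p = 0.538). With upper quartile scaling, which lowered the median of all genes from 0.01 to -0.05, it was -0.11 (limma adjusted p = 0.0466). The near-identical copy NOTCH2NLA was listed at 0.189 to 0.288 FPKM, and reads shared with such copies leave the value of NOTCH2 uncertain.

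The share of NOTCH1 in the summed receptor FPKM went from 23.3 ± 0.656% in DMSO to 35.2 ± 0.506% in PD, while that of NOTCH2 went from 71.6 ± 0.312% to 58.7 ± 0.518% (SD, n = 3 each). NOTCH3 held 5.02% and 5.99%, and NOTCH4 at most 0.156% in any library. The sum over the 4 receptors was 34.1 ± 0.457 FPKM in DMSO and 40.9 ± 0.618 in PD. Within a library, the ratio of NOTCH1 to NOTCH2, which does not depend on how libraries are scaled, was 0.325 in DMSO and 0.601 in PD, a log2 difference of 0.89. The ratio of NOTCH1 to NOTCH3 went from 4.68 to 5.89, a log2 difference of 0.34. Neither ratio overlapped between the groups, and each had an exact two-sided permutation p of 0.10, the smallest that 3 against 3 libraries can give, and an adjusted p of 0.133 over the 4 ratios computed.

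**Figure D2:**
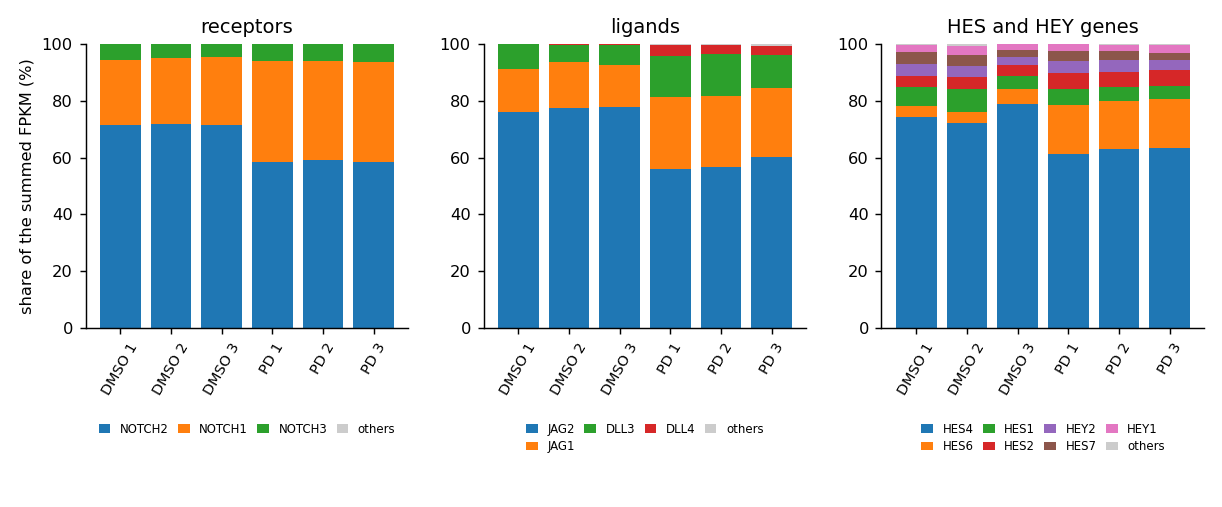
Stacked bars give the percent of the summed FPKM that genes hold in each of the 6 libraries, within groups such as the receptors, the ligands and the HES-HEY genes. NOTCH2 held 71.6% of the receptor sum in DMSO and 58.7% in PD, JAG2 held 77.1% and 57.6% of the ligand sum, and HES4 held 75.1% and 62.5% of the HES-HEY sum.

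The Jagged ligands moved in opposite directions. JAG1 (ENSG00000101384, chromosome 20, 10637684 to 10673999, minus strand), whose loss of a copy causes Alagille syndrome, stood at 2.76, 3.10 and 3.03 FPKM in DMSO and at 4.58, 4.48 and 4.30 in PD. All PD libraries were higher, with means of 2.96 ± 0.177 and 4.45 ± 0.145 FPKM (SD, n = 3 each), and the log2 fold change was 0.46 (standard error 0.06, limma adjusted p = 0.000418). JAG2 (ENSG00000184916, chromosome 14, 105140982 to 105168824, minus strand), the second Jagged ligand, stood at 13.7, 14.6 and 16.2 FPKM in DMSO and at 10.2, 10.1 and 10.6 in PD. All PD libraries were lower, and it was the only member that fell past the threshold, by 0.48 on the log2 scale with a standard error of 0.06 (limma adjusted p = 0.000463). An lncRNA gene on the opposite strand overlaps 3.29% of the exon bases of JAG1, and one on the same strand overlaps 7.33% of those of JAG2, so that reads there cannot be assigned with certainty.

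The ratio of JAG1 to JAG2 within a library was 0.202, 0.212 and 0.186 in DMSO and 0.451, 0.441 and 0.404 in PD. The log2 difference was 1.11 with no overlap (exact permutation p = 0.10, adjusted over the 4 ratios 0.133). JAG2 held 77.1 ± 1.08% of the summed ligand FPKM in DMSO and 57.6 ± 2.20% in PD, whereas JAG1 held 15.4 ± 0.934% and 24.9 ± 0.516%. The sum over JAG1, JAG2, DLL1, DLL3 and DLL4 was 19.3 ± 1.42 FPKM in DMSO and 17.9 ± 0.215 in PD.

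DLL1 (ENSG00000198719, chromosome 6, 170282206 to 170306565, minus strand), a Delta-like ligand, was close to the limit of detection. It stood at 0, 0.0185 and 0.0181 FPKM in DMSO and at 0.0858, 0.0354 and 0.114 in PD. These values rest on 0, 1 and 1 fragments in DMSO and on 5, 2 and 6 in PD. The PD libraries were higher, and the ratio of the pooled fragments per library total was 6.40 with an exact 95% interval of 1.45 to 58.5, which covers counting error only. In addition, 9.69% of its exon bases overlap FAM120B on the opposite strand.

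In DMSO, the order of the members by mean FPKM was HES4, NOTCH2, JAG2, NOTCH1, HES1, HES6, JAG1, HEY1, NOTCH3 and DLL1. Neighbours in this order had separate ranges except HES1 with HES6 and HES6 with JAG1, which overlapped. In PD the order was HES4, NOTCH2, HES6, NOTCH1, JAG2, HES1, JAG1, HEY1, NOTCH3 and DLL1, and only the ranges of HEY1 and NOTCH3 overlapped. HES6 thus stood between HES1 and JAG1 in the control cells and between NOTCH2 and NOTCH1 after PD. Of the summed FPKM of the 10 HES-HEY genes analysed, HES6 held 4.31 ± 0.774% in DMSO and 17.1 ± 0.208% in PD, and HES1 held 6.51% and 5.19%. The ratio of HES1 to HES4 was 0.0875 in DMSO and 0.0831 in PD, overlapped between the groups and had an exact permutation p of 1.

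The rest of the pathway was read from 79 genes listed by role, of which 72 were analysed and 62 were tested. Of these 24 rose and 14 fell, and 24 did not pass the threshold. The genes that rose include ID2 and SOX9, which reached the level for testing through their PD libraries. In all tested genes 31.9% rose and 26.2% fell, and in the pathway lists the shares were 38.7% and 22.6%. The counts by role below are to be read beside the shares over all tested genes, and no role was tested as a set. Their median log2 fold change was 0.06, against 0.01 in all tested genes. DLK2 and CDKN1A were DEGs, 2 of 62 against 3.61% of all tested genes, and voom made 7 of 63 DEGs, against 11.7%. Among these 7 were ID2, SOX9 and DLL4. ID2 and DLL4 met the minimum for voom, 10 fragments in 3 libraries, only with their PD libraries, so their place among the 7 is no separate support.

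**Figure D3:**
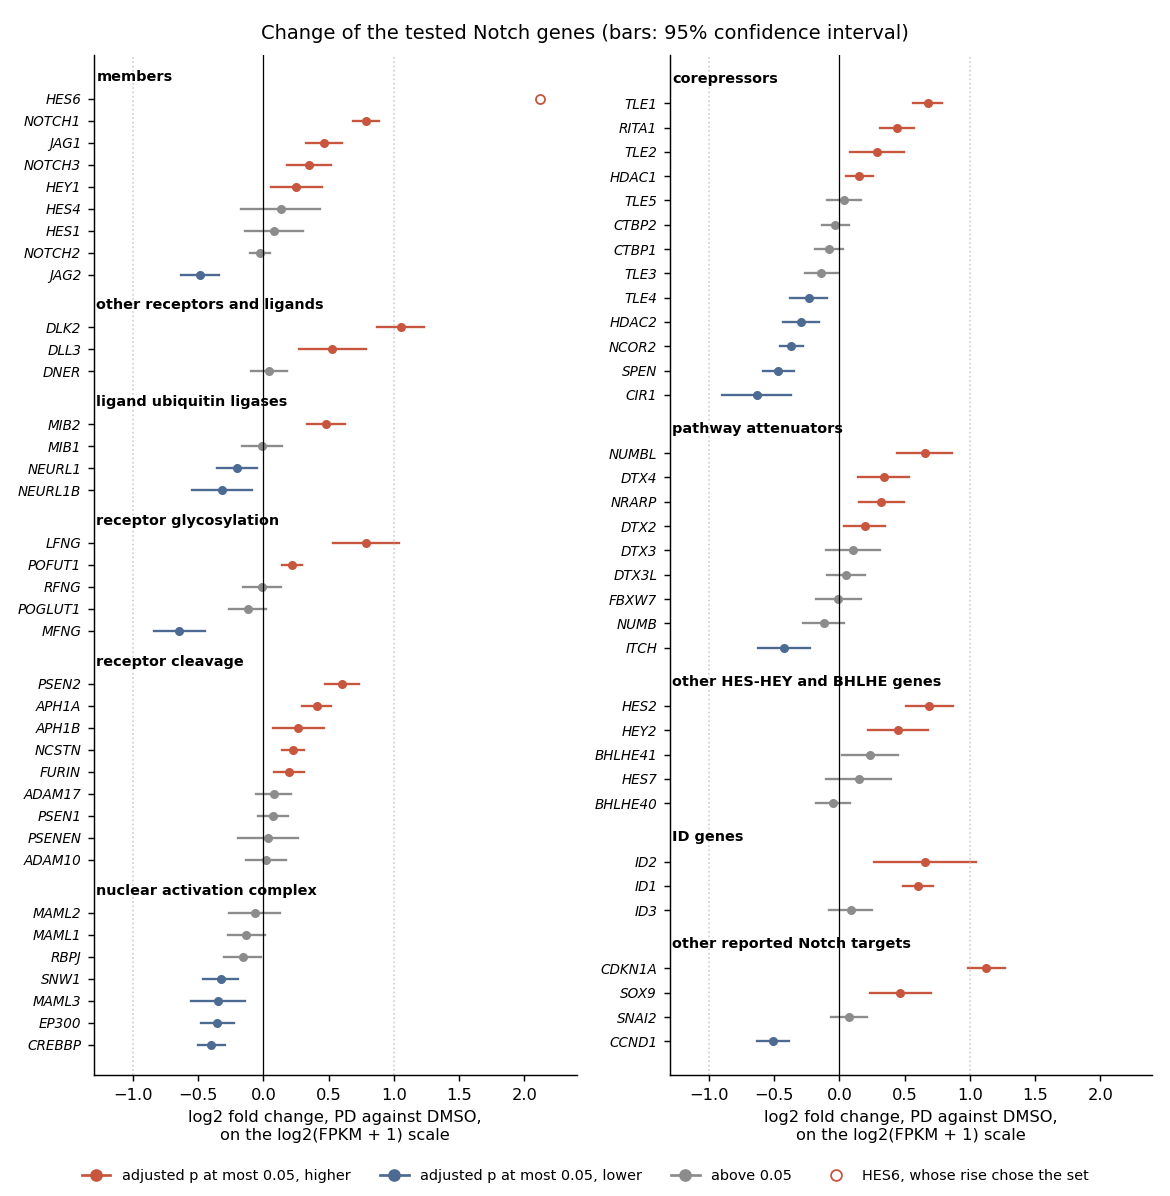
Log2 fold change of PD against DMSO on the log2(FPKM + 1) scale for the tested members and pathway genes, grouped by role, with 95% confidence intervals and dotted lines at a 2-fold change. HES6, at 2.12 and drawn without an interval, lies beyond NOTCH1 at 0.78 and JAG2 at -0.48.

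Among the other receptors and ligands, 2 of the 3 tested genes rose and none fell. DLK2, a ligand-like protein without the domain that activates the receptor, stood at 2.12, 2.29 and 1.96 FPKM in DMSO and at 5.94, 5.56 and 4.96 in PD. No DMSO library came near a PD library, and the log2 fold change was 1.05 (limma adjusted p = 2.99e-05). DLL3, a divergent ligand that stays inside the cell, had a log2 fold change of 0.53 (limma adjusted p = 0.00459). DLL4, a ligand best known from growing blood vessels, was below the limit for testing by limma on FPKM and is given because of its values. It stood at 0.0244, 0.0377 and 0.0492 FPKM in DMSO and at 0.652, 0.576 and 0.568 in PD, on 9 and 148 pooled fragments. The groups were far apart, with a ratio of 16.2. This ratio is given without an interval or test, as the gene was picked for its values. The 5 endothelial markers stayed at or below 0.113 FPKM each.

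Ligands have to be taken up by the sending cell to pull on the receptor, and of 4 ubiquitin ligases with this task 1 rose and 2 fell. MIB2 had a log2 fold change of 0.48 (limma adjusted p = 0.000445). NEURL1B fell by 0.32 on the log2 scale (limma adjusted p = 0.0247), a call that was lost in 5 of 12 alternatives, with an adjusted p of up to 0.0748. The sugars added to the receptor decide which ligand it answers to, and of 5 enzymes of this step 2 rose and 1 fell.

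The 3 fringe enzymes, which extend O-fucose on the receptors, differed among themselves. LFNG stood at 1.17, 1.76 and 1.74 FPKM in DMSO and at 3.12, 3.52 and 3.50 in PD, a log2 fold change of 0.78 (limma adjusted p = 0.000623). MFNG stood at 2.44, 2.29 and 2.44 FPKM in DMSO and at 1.38, 1.05 and 1.09 in PD, and fell by 0.64 on the log2 scale (limma adjusted p = 0.00045). The groups of LFNG and of MFNG were each apart, in opposite directions. RFNG had a log2 fold change of -0.01 (limma adjusted p = 0.88) and overlapped. LFNG thus went from 14.5% to 30.1% of the summed fringe FPKM and MFNG from 22.4% to 10.5%, at a sum of 10.7 ± 0.636 FPKM in DMSO and 11.2 ± 0.473 in PD.

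Receptor cleavage, by FURIN, the ADAM proteases and the gamma-secretase complex, had 5 of 9 genes higher and none lower, and their median log2 fold change was 0.19. The largest rise was that of PSEN2, a catalytic subunit of gamma-secretase, at 0.60 (limma adjusted p = 8.53e-05), although 38.7% of its exon bases overlap another gene on the same strand. In the nuclear activation complex, 4 of 7 genes fell and none rose, with a median of -0.33. Over all tested genes 31.9% rose and 26.2% fell, and whether either step moved as a whole was not tested. CREBBP, an acetyltransferase that joins the complex, fell by 0.40 on the log2(FPKM + 1) scale (limma adjusted p = 0.000234) and by 0.43 by voom. MAML3, a coactivator of the Mastermind family at a lower level, fell by 0.35 on the first scale (limma adjusted p = 0.0108) and by 0.85 by voom. RBPJ itself, named for its role, had a log2 fold change of -0.16, which did not pass the threshold (limma adjusted p = 0.0543), and by voom it passed (limma adjusted p = 0.0174).

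Of the 13 corepressors 4 rose and 5 fell. TLE1, a Groucho-type protein that HES factors recruit, stood at 6.997, 7.49 and 7.30 FPKM in DMSO and at 11.7, 12.3 and 12.6 in PD, and rose by 0.68 on the log2 scale (limma adjusted p = 2.39e-05). CIR1, a corepressor of RBPJ, fell by 0.63 (limma adjusted p = 0.00218). Of the 9 attenuators tested 4 rose and 1 fell. NUMBL, an adaptor of receptor uptake, rose by 0.65 (limma adjusted p = 0.000583), and ITCH, a ubiquitin ligase of the receptor, fell by 0.42 (limma adjusted p = 0.004), with 23.4% of its exon bases shared with another gene on the same strand. NRARP, an inhibitor that Notch itself switches on and that is named for this role, rose by 0.32 (limma adjusted p = 0.00726).

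Further HES-HEY and BHLHE genes had 2 of 5 tested genes higher and none lower. HES2, a repressor of the family, rose from 3.43 to 6.12 FPKM, by 0.69 on the log2 scale (limma adjusted p = 0.00021). Of the 3 ID genes tested, whose proteins bind helix-loop-helix partners and keep them off DNA, ID1 rose by 0.61 on the log2 scale (limma adjusted p = 4.69e-05). ID2 averaged 0.275 FPKM in DMSO and 1.04 in PD and so entered the test through its PD libraries alone, and its log2 fold change of 0.66, or 1.76 by voom, is given without a test. Of 4 other reported Notch targets, CDKN1A rose and CCND1 fell, and SOX9, at 0.472 FPKM in DMSO and 1.03 in PD, also entered through PD alone. CDKN1A, an inhibitor of the cell cycle that p53 also controls, stood at 50.8, 51.7 and 47.7 FPKM in DMSO and at 101, 117 and 114 in PD, and rose by 1.13 on the log2 scale (limma adjusted p = 8.46e-06). CCND1, a cyclin of the G1 phase, fell by 0.51 (limma adjusted p = 0.00014), with 10.4% of its exon bases shared with LTO1 on the opposite strand.

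HES6 is known from neuronal and neuroendocrine cells, and 7 proneural and neuroendocrine genes had been listed, of which 3 were analysed and none reached the level for testing. ATOH1 had 0 fragments in DMSO and 3 in PD over the 3 libraries each, and NEUROG2 had 10 and 33. The ratio of NEUROG2 per library total was 3.25. It rests on few fragments and is given without an interval or test, as the gene was named with its values in view.

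The 5 genes whose profile over the 6 libraries was most like that of HES6 were NPTXR, RIMS4, BAIAP3, IDH2 and ZCCHC24. Likeness was the root mean square difference between the genes' log2(FPKM + 1), each centred on its DMSO mean, and it was 0.146 for NPTXR, a neuronal pentraxin receptor, and 0.247 to 0.295 for the others. By this measure a gene close to HES6 must have risen about as much under PD on the log2(FPKM + 1) scale. The rise of these 5 was thus set by how they were picked. Their ratios of FPKM can still differ from that of HES6, as the scale adds 1 FPKM. BAIAP3 had means of 0.321 FPKM in DMSO and 4.22 in PD, and so entered the test through its PD libraries alone. NPTXR stood at 1.501, 1.62 and 1.95 FPKM in DMSO and at 9.94, 10.9 and 11.4 in PD. Like HES6 it was highest in replicate 3 among the DMSO libraries. IDH2, the mitochondrial isocitrate dehydrogenase, had the highest level of the 5, with means of 7.23 FPKM in DMSO and 29.0 in PD.

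**Figure D4:**
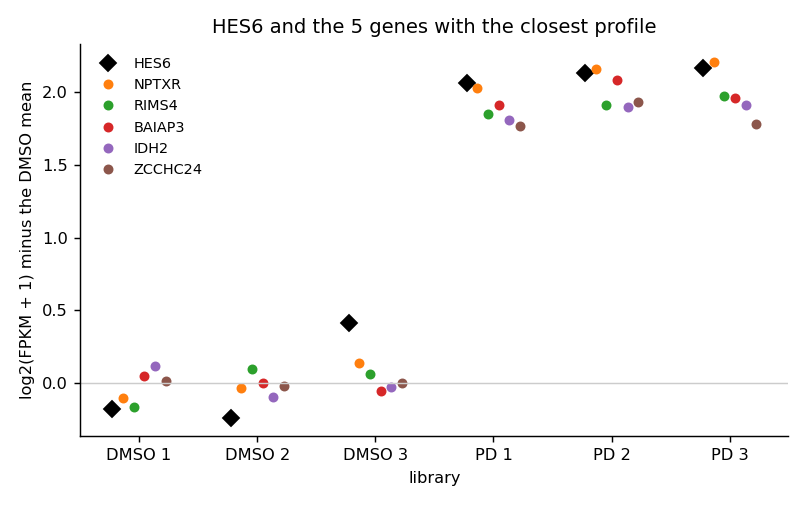
Log2(FPKM + 1) of HES6 and the 5 genes closest to it, minus each gene's DMSO mean, in the 6 libraries. HES6 and NPTXR are above their DMSO mean in DMSO 3. All 6 genes are high in every PD library, which the way of picking them required, and the log2 fold changes of the 5 run from 1.83 to 2.13.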

How the data were processed

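RNA from HepG2 cells treated with PD or DMSO for 24 h was sequenced in 3 libraries per group, and groups and replicate numbers were taken from the sample labels. The authors selected poly(A) RNA, prepared libraries with a kit that does not mark strand, aligned reads to hg38 with HISAT2, counted them with HTSeq 0.6.0 and deposited a table of FPKM, whose 6 value columns were all used. The strand setting of the counting is not given in the sources used here. The members and gene lists were chosen with earlier results of these data known.

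Genes averaging 0.5 FPKM or more were fitted with limma 3.58.1 in R 4.3.3 on log2(FPKM + 1), with a trended prior variance and no covariate. A fold change on this scale understates changes of low genes. Named were all members, the DEGs of the lists, the largest rise and fall past the threshold in each list, and 5 genes closest to HES6. DLL3, DLL4, MAML3, ID1, SOX9, RFNG, RBPJ, NRARP and the proneural genes lie outside this rule and were added with their values in view. Whole fragments, within 1e-05, were worked back from FPKM for all 28563 genes, for 12770 of them with exon lengths of GENCODE release 44, and the genes held 99.765% to 99.7708% of each library total. Libraries of a group differed by 2.37 to 3.81 in chi-square per gene, more than sampling noise, and no libraries were merged. The replicate numbers did not pair the libraries.

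The alternatives were a pseudocount of 0.1, no filter, a replicate block, median-of-ratios and upper quartile scaling, limma voom on fragments (at least 10 in 3 libraries) and leaving out each library. Ratios within libraries were tested by exact two-sided permutation in scipy 1.17.1. On simulated fragments for PD against DMSO, limma made DEGs of 86 of 100 genes changed 2.5-fold and 97 of 100 changed 4-fold. It also made DEGs of 3 unchanged genes among 14573 tested. The simulation gave all genes the same relative spread beyond counting noise, and calls at the adjusted p alone were not counted in it. Its changed genes were drawn only from those above a minimum mean level in DMSO. Recovery was thus not measured for lower genes such as NOTCH3, LFNG, DLL3 and MAML3. Marker and pathway genes not named with values were not analysed here.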

Additional observations from a re-analysis of the deposited data

How the results depend on the processing

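Of the members other than HES6, 4 to 5 were called and 0 were DEGs under all 12 alternatives, and pathway genes numbered 20 to 26 higher and 12 to 20 lower. HES6 had a log2 fold change of 2.00 to 2.39. DEGs over all genes numbered 520 (294 higher and 226 lower), but 1248 (698 and 550) with a pseudocount of 0.1 and 1775 (1034 and 741) by voom. Of the pathway genes 2 were DEGs, against 5 with a pseudocount of 0.1, where LFNG, SOX9 and ID2 were added, 7 by voom, and 1 with upper quartile scaling, which left CDKN1A. At the adjusted p alone, 4588 genes were higher and 3780 lower, against 3798 and 4675 with upper quartile scaling, and 4362 and 4032 with median-of-ratios scaling.

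Leaving out single libraries gave 511 to 561 DEGs over all genes and log2 differences of 1.06 to 1.16 for the ratio of JAG1 to JAG2, 0.87 to 0.91 for NOTCH1 to NOTCH2, and 0.24 to 0.44 for NOTCH1 to NOTCH3. For HES1 to HES4 it gave -0.29 to 0.17, with 0.17 without DMSO 2 and 0.06 without PD 3 against -0.04 with all libraries. The cause was not tested. With the replicate block, 4 members, 22 higher and 13 lower pathway genes were called and 518 genes were DEGs (294 and 224), and the ratios had sign-flip p-values of 0.25, the smallest possible with 3 pairs, or 1. The block ended the call of HEY1, named above, and of no other member. Correlations between same-numbered libraries were -0.027, -0.0046 and 0.090, so the numbers are names only, and for 1 of the numbers, 3, each library correlated best with its own number. DLL1 rests on at most 6 fragments in a library and could not be tested.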
